A study of Mus musculus with 6 samples.

Results

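Synaptopodin-2, the product of Synpo2, and the genes for its paralogues and for the Z-disc and filamin-handling proteins that work beside it were followed through 6 mouse tongue grafts: 10 genes of the 55487 in the count table, all of which were among the 15666 genes expressed highly enough to be tested. They were Synpo2, its paralogues Synpo2l and Synpo, the cross-linkers Actn2, Actn3 and Flnc, the Z-disc scaffolds Ldb3, Myot and Myoz1, and the co-chaperone Bag3. Synpo2 was selected on its difference between the same grafts and the partners were listed by function with those values known, so the differences between groups are given as a description and support nothing by themselves.

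The grafts were B16F10, a pigmented mouse melanoma line, grown under the mucosa of the tongue of wild-type C57BL/6J mice. In 3 grafts the nociceptive nerves reaching the lymph nodes (LN) were labelled as inhibited, and 3 were controls. The design names the vectors AAV2/retro-Trpv1-hM4D(Gi)-mCherry, with a receptor that silences neurons when its ligand binds, and AAV2/retro-Trpv1-mCherry, with the fluorescent protein alone, and they are read here as belonging to the inhibition and the control grafts in that order. Vectors were injected into cervical lymph nodes 6 weeks before the graft, and deschloroclozapine, the ligand, was given 2 times per day for 12 days. The control labels read vehicle-treated while the design gives the ligand to the mice without distinguishing the vectors, so what the controls received is not settled. Non-tumour tissue was removed before RNA of each whole graft was extracted, and the Trpv1 in the vectors' names points to nociceptive neurons, not to cells of the graft.

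The Z-disc is the plate at the end of each sarcomere, the contractile unit of striated muscle, where actin filaments of opposite direction are held together by alpha-actinin. Synaptopodin-2, also called myopodin, is an actin-bundling protein of the Z-disc and of smooth muscle that binds alpha-actinin, filamin and the co-chaperone BAG3. With BAG3 it takes part in chaperone-assisted selective autophagy, by which filamin damaged under tension is taken away and replaced.

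Sequences upstream of transcription starts are shown for the 4 members whose RefSeq window, up to the annotated gene, held at least 1 match to an E-box, a MEF2 site, a CArG box or a TATA box, the letters known for binding the muscle factors of the MyoD and MEF2 families, serum response factor and the TATA-binding protein. RefSeq entries (GRCm38.p6) were found for 6 of the 10 members. Each run reads 5′ to 3′ on the strand of the gene and ends at the base before the annotated gene. The RefSeq starts of Actn2 and Ldb3 lie inside the annotated gene, so their runs stop short of the start from which positions are counted. Capitals mark the matches to these 4 motifs. The windows are chr3:123236150-123236399 for Synpo2, chr14:20668355-20668604 for Synpo2l, chr13:12340761-12340982 for Actn2 and chr14:34588683-34588931 for Ldb3, all on the minus strand.
Synpo2: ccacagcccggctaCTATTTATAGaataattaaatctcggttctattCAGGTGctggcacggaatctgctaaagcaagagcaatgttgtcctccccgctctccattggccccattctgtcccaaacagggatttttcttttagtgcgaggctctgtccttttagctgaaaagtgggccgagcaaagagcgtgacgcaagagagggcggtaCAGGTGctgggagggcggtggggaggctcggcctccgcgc
Synpo2l: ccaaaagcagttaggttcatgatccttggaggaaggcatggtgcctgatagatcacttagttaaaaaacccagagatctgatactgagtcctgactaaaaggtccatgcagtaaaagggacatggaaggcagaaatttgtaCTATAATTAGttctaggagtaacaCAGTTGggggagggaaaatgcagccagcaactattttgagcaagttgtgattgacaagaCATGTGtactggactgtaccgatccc
Actn2: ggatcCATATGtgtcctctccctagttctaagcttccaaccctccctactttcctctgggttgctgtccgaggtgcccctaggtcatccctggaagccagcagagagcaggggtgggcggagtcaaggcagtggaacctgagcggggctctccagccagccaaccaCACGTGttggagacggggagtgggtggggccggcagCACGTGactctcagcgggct
Ldb3: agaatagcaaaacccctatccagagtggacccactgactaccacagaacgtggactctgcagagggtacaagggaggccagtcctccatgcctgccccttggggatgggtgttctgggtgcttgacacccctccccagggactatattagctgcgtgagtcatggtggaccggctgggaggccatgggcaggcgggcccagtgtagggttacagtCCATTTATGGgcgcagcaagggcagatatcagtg

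Synpo2 and Synpo2l each held a MEF2 site. In Synpo2 it read CTATTTATAG, 236 to 227 bases upstream of the start, and it overlapped the reverse complement of the TATA box TATAAA. In Synpo2l it read CTATAATTAG, 109 to 100 bases upstream, and a second annotated start of Synpo2l, within the gene, held another. A MEF2 site stood in 2.92% of 32851 RefSeq promoters over the same 250 bases, both strands searched. Flnc had 2 annotated starts, and only the window of the second held an MCAT element (CATTCC, in 12.6% of promoters), 104 to 99 bases upstream. Ldb3 had no MEF2 site but a CArG box, CCATTTATGG, a match found in 1.47% of promoters. It lay 35 to 26 bases upstream of the first annotated start and 109 to 100 bases upstream of the second. E-boxes (CANNTG) stood in Synpo2, Synpo2l and Actn2, and they are common, being found in 66.2% of promoters. No heat shock element spelled GAANNTTC lay in the Bag3 window, which says only that these letters were not in these 250 bases (6.69% of promoters hold them). The matches are descriptions of the letters, not of bound factors.

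Synpo2 was the 1 member called at an adjusted p under 0.05 (edgeR quasi-likelihood test with Benjamini-Hochberg adjustment), and it was higher in every inhibition graft than in every control graft. The gene (ENSMUSG00000050315) lies on the minus strand at chr3:123076519-123236149 (GRCm38), and the table holds 1 count per gene and library. Its counts were 600, 670 and 756 in inhibition grafts 1 to 3, against 205, 254 and 346 in control grafts 1 to 3. In CPM, which divide each count by the TMM-scaled size of its library, these were 42.0, 34.3 and 36.0 in the inhibition grafts, against 12.4, 16.5 and 16.7 in the controls. The lowest inhibition graft thus stood well clear of the highest control. Means were 37.5 ± 4.05 CPM under inhibition and 15.2 ± 2.47 CPM in controls (SD, n = 3 each), and the log2 fold change of inhibition over control was 1.30 ± 0.14 (SE, edgeR adjusted p = 0.0334). The call was lost when inhibition 1, inhibition 2 or control 3 was left out (edgeR adjusted p of 0.162, 0.0921 and 0.129), while the fold stayed between 1.16 and 1.37 without any 1 library. It was lost too with the replicate number as a block (adjusted p = 0.0626) and with limma-voom (adjusted p = 0.164). In bulk RNA, fewer cells of a type and less RNA per cell cannot be told apart. The call was also lost when the contractile gene level of each graft entered the fit as a covariate, with a log2 fold change of 1.05 ± 0.21 (SE, edgeR adjusted p = 0.669).

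Few genes of the whole table passed the same threshold. Over the 15666 genes tested, 5 were called higher under inhibition, which is 0.0319%. At an unadjusted p under 0.05, 8.36% of all genes were higher and 7.00% lower, and 10.2% had every inhibition graft above every control. DESeq2 called 349 of 14753 genes higher, 2.37%, and limma-voom called 0 genes in either direction. Among the 10 members, 5 passed unadjusted in the higher direction and 0 in the lower, 5 were called higher by DESeq2 (Synpo2, Synpo2l, Actn2, Ldb3 and Myot), and 7 had groups that did not overlap. The median log2 fold change of the members was 1.16, beside 0.0049 over all genes tested. Because these comparisons chose the members, nothing is read from their shares.

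**Figure D1:**
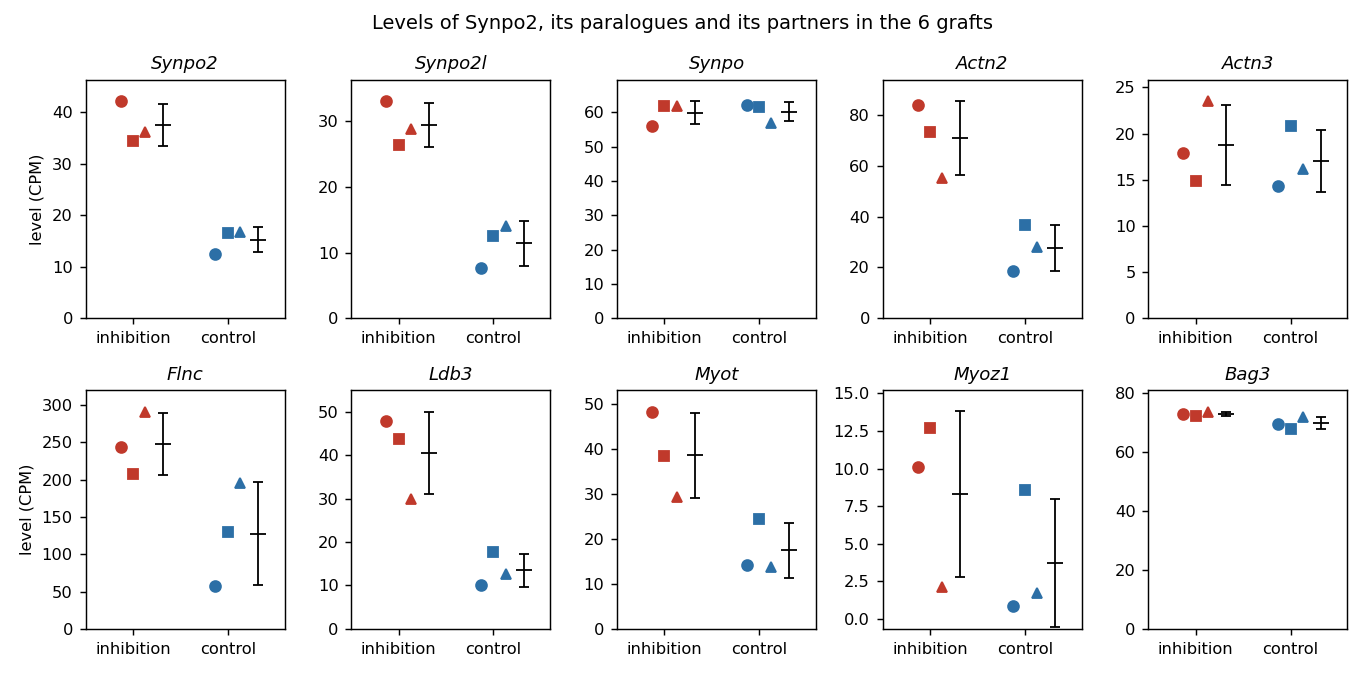
Level of each member (CPM, linear axis) in the 3 inhibition grafts (red, left) and the 3 control grafts (blue, right), with circle, square and triangle for replicates 1, 2 and 3 and the mean ± SD beside them. Synpo2, Synpo2l, Actn2, Ldb3 and Myot were separated between groups, Synpo and Bag3 lay level, and the SD bar of Myoz1 in controls reaches below 0 because its SD (4.25 CPM) exceeded its mean (3.71 CPM).

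The 2 paralogues of Synpo2 differed from each other. Synpo2l, the striated-muscle paralogue known as CHAP, had 33.0, 26.4 and 28.7 CPM in the inhibition grafts, against 7.60, 12.6 and 14.1 CPM in controls. Its gene lies at chr14:20658946-20668354, next to Myoz1 at chr14:20649107-20656540 on the same strand, with no exon base in common. The groups of Synpo2l did not overlap, and its log2 fold change of 1.36 ± 0.21 (SE) was as large as that of Synpo2 but did not pass (edgeR adjusted p = 0.0969). Without control 1, the lowest library, it was 1.13 (adjusted p = 0.0343), and without inhibition 3 it was 1.36 (adjusted p = 0.0469). With any other library left out the adjusted p was between 0.0822 and 0.409. Synpo, which encodes the actin-associated synaptopodin of kidney podocytes and dendritic spines, had 56.0, 61.8 and 61.8 CPM under inhibition, against 62.2, 61.6 and 56.9 CPM in controls. The groups overlapped, with a log2 fold change of -0.01 ± 0.08 (SE, edgeR adjusted p = 0.972), whose sign turned under 4 of the alternatives tried.

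Actn2 and Actn3 encode the sarcomeric alpha-actinins, and Actn3 is kept to fast fibres. Actn2 had 84.0, 73.4 and 55.3 CPM under inhibition, against 18.4, 36.6 and 27.9 CPM in controls, with no overlap. Its log2 fold change was 1.36 ± 0.28 (SE, edgeR adjusted p = 0.166). Actn3 did not share that pattern: it had 17.9, 14.9 and 23.5 CPM under inhibition, against 14.3, 20.8 and 16.1 CPM in controls, and these groups overlapped. Its log2 fold change of 0.14 ± 0.20 (SE, edgeR adjusted p = 0.759) became -0.07 without inhibition 3, its highest library. The alpha-actinins share few long runs of letters, with 2 windows of 50 bases in common, a window length that was chosen and is not a stated read length.

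Flnc encodes filamin C, the muscle filamin that binds Synpo2 protein and is the known load of BAG3-assisted autophagy. It had 244, 208 and 290 CPM under inhibition, against 57.1, 130 and 196 CPM in controls. The groups were separated only narrowly, the highest control lying just under the lowest inhibition graft, and the controls were widely spread. The log2 fold change was 0.95 ± 0.47 (SE, edgeR adjusted p = 0.407), and it was 0.59 without control 1 and 1.40 without control 3, so the size of the difference turned on which control was kept.

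Among the scaffolds, Ldb3 (also called Cypher or ZASP), a PDZ-LIM protein that binds alpha-actinin, had the largest fold of the 10 members in the fit over all 6 grafts. It had 47.9, 43.7 and 30.0 CPM under inhibition, against 10.2, 17.6 and 12.6 CPM in controls, with no overlap. Its log2 fold change was 1.59 ± 0.25 (SE, edgeR adjusted p = 0.122), and the adjusted p was 0.00914 without inhibition 3 and 0.042 without control 2 but between 0.247 and 0.409 with any other library left out. Myot encodes myotilin, an actin cross-linker of the Z-disc. Myot had 48.2, 38.4 and 29.3 CPM under inhibition, against 14.2, 24.5 and 13.7 CPM in controls, and the groups did not overlap (log2 fold change 1.15 ± 0.28 SE, edgeR adjusted p = 0.186). Myoz1 encodes myozenin-1, which tethers calcineurin to the Z-disc and belongs to fast fibres. It had 10.1, 12.7 and 2.14 CPM under inhibition, against 0.845, 8.59 and 1.69 CPM in controls, so inhibition 3 lay among the controls and control 2 near the inhibition grafts. Its log2 fold change of 1.18 ± 1.04 (SE, edgeR adjusted p = 0.627) rested on counts of only 45 to 248 under inhibition and 14 to 132 in controls. The fold ran from 0.71 without control 1 to 2.66 without control 2.

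Bag3 encodes the co-chaperone that binds Synpo2 protein and handles damaged filamin. It was the steadiest member, with 72.7, 72.0 and 73.4 CPM under inhibition, against 69.5, 67.8 and 71.9 CPM in controls. The groups did not overlap, but the gap was a fraction of 1 CPM. Its log2 fold change of 0.06 ± 0.07 (SE, edgeR adjusted p = 0.694) was within its error.

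Divided by the length of their annotated exons, the members differed widely in level, with Synpo2 at the low end. In inhibition grafts the mean CPM per kilobase was 28.4 for Bag3, 26.3 for Flnc, 18.7 for Actn2, 17.5 for Myot, 6.64 for Ldb3, 6.47 for Actn3, 6.35 for Synpo2l, 6.28 for Synpo, 4.40 for Myoz1 and 2.86 for Synpo2. In controls the order by the same measure was Bag3 at 27.2, Flnc at 13.6, Myot at 7.90, Actn2 at 7.28, Synpo at 6.32, Actn3 at 5.89, Synpo2l at 2.47, Ldb3 at 2.21, Myoz1 at 1.96 and Synpo2 at 1.16. Neighbours in the inhibition order had overlapping ranges except Myot and Ldb3, and in the control order except Bag3 and Flnc and Actn3 and Synpo2l. The exon length of Synpo2, 13089 bases, sums all annotated isoforms, and which isoforms the grafts used cannot be read from counts per gene.

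Within each library, Synpo2 was set against each partner to ask whether it followed them. But for the small prior count, such ratios do not depend on the scaling of libraries. The log2 ratio of Synpo2 to Synpo2l was 0.35, 0.38 and 0.33 in the inhibition grafts, against 0.69, 0.39 and 0.25 in controls, and the groups overlapped. Differences in mean log2 ratio, inhibition minus control, were -0.10 against Synpo2l, -0.09 against Actn2, 0.19 against Flnc, -0.29 against Ldb3, 0.14 against Myot and -0.13 against Myoz1, and all 6 overlapped between groups. Against Synpo, Actn3 and Bag3 the differences were 1.31, 1.17 and 1.24, with every inhibition graft above every control, and the number of partners set apart in this way stayed 3 in all 7 alternatives. Synpo, Actn3 and Bag3 were also the members with log2 fold changes nearest to 0.

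**Figure D2:**
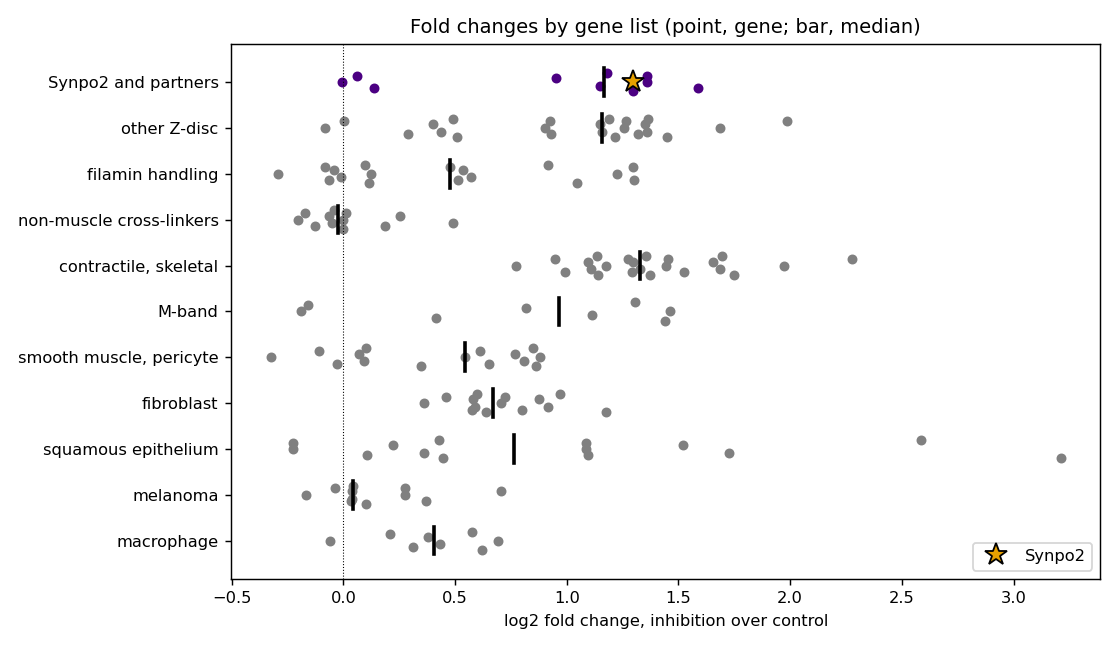
Fold change of each tested gene of Synpo2 and its partners and of the other gene lists (log2, inhibition over control). The median of each list is drawn across its points, and the podocyte and neuron markers are not drawn. The members and the other Z-disc and contractile genes lie mostly above 0, with medians of 1.16, 1.16 and 1.33, while the nonmuscle cross-linkers lie around 0 with a median of -0.02.

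Of 24 other Z-disc genes 23 were tested, and 22 of them had a log2 fold change above 0 (median 1.16). None was called by edgeR, 17 passed unadjusted in the higher direction and 0 in the lower, and 15 were called higher by DESeq2. The most abundant per kilobase were Cryab, a small heat shock protein, Des, the muscle intermediate filament, and Fhl1, a LIM protein. Fhl1 had 309, 287 and 213 CPM under inhibition, against 90.6, 149 and 115 CPM in controls (log2 fold change 1.19, edgeR adjusted p = 0.162). Des averaged 332.5 ± 26.1 CPM under inhibition and 177.8 ± 48.0 CPM in controls, and Cryab 253.7 ± 15.3 and 187.4 ± 13.9 CPM in the same order (SD, n = 3 each). Another annotated gene shares 17.0% of the Cryab exon bases.

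Of 25 contractile genes of skeletal muscle 23 were tested, and all 23 had positive folds with a median of 1.33, but none passed in edgeR, 14 passed unadjusted as higher and 11 were called higher by DESeq2. The 3 most abundant per kilobase were Acta1, skeletal actin, Tnnt3, fast troponin T, and Mylpf, the fast regulatory light chain. Acta1 averaged 859.0 ± 141 CPM under inhibition and 398.4 ± 123 CPM in controls (SD, n = 3 each), with a log2 fold change of 1.11 (edgeR adjusted p = 0.186). The summed CPM of the list was 4490, 4019 and 2464 under inhibition, against 935, 2141 and 1298 in controls, so inhibition 3 lay close to control 2. Of 8 genes of the M-band, the plate at the middle of the sarcomere, 6 had positive folds, with a median of 0.97. Of these 8 genes 0 were called by edgeR, 4 were higher and 1 lower unadjusted, and 3 were called higher by DESeq2. The 3 most abundant per kilobase were Nbr1, Obsl1 and Myom1, with log2 fold changes of -0.19, -0.16 and 1.11.

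Genes that handle filamin, and the cross-linkers of nonmuscle cells, had lower medians than the sarcomere lists, a difference that was not tested. Of 17 filamin-handling genes 12 had positive folds, with a median of 0.48, and 0 were called in edgeR; 7 were higher and 1 lower unadjusted, and DESeq2 called 3 higher and 1 lower. The median was 0.21 without control 1 and 0.24 without inhibition 2. The most abundant were Hspa8, the constitutive HSC70, Sqstm1, the autophagy receptor p62, and Hspa4. Sqstm1 had 1032, 1126 and 1147 CPM under inhibition, against 1424, 1379 and 1247 CPM in controls, with no overlap (log2 fold change -0.29 ± 0.08 SE, edgeR adjusted p = 0.186). Hspb8, the small heat shock protein of the BAG3 complex, had 61.1, 70.5 and 60.8 CPM under inhibition, against 33.1, 45.3 and 54.0 CPM in controls (log2 fold change 0.54 ± 0.17 SE, edgeR adjusted p = 0.224). Stub1, the ubiquitin ligase of the complex, had 56.1, 44.9 and 50.7 CPM under inhibition, against 44.8, 46.5 and 48.6 CPM in controls, and overlapped. Other annotated genes share 42.3% of the Stub1 and 17.3% of the Sqstm1 exon bases, so the counts of both are less certain. Hspb8 thus lay higher and Sqstm1 lower in every inhibition graft than in any control, and neither passed the edgeR test.

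The nonmuscle cross-linkers, among them Actn1, Actn4 and Flna, had 4 of 12 tested genes above 0 and a median log2 fold change of -0.02, with 0 called by edgeR, 1 higher unadjusted and 1 by DESeq2. The gene that passed unadjusted was Palld (log2 fold change 0.49), which is counted among the other Z-disc genes as well. Flna, the filamin of nonmuscle cells, averaged 763.4 ± 8.96 CPM under inhibition and 832.5 ± 80.3 CPM in controls, and Actn4 564.2 ± 59.0 and 590.0 ± 20.2 CPM in the same order (SD, n = 3 each). Their log2 fold changes were -0.13 and -0.06 (edgeR adjusted p of 0.487 and 0.750), beside 0.95 for Flnc and 1.36 for Actn2, and the difference between the muscle and nonmuscle forms was not tested.

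Markers of other cell types were also measured, and none was called by edgeR. Melanoma markers summed to 36920, 31580 and 31570 CPM under inhibition, against 24110, 31600 and 32250 CPM in controls, and 0 of 11 were called by edgeR or DESeq2 or passed unadjusted. Pigment cell genes such as Tyrp1, which averaged 9185 ± 1363 CPM under inhibition and 7116 ± 2254 CPM in controls (SD, n = 3 each), were thus abundant in all 6 grafts, as the labelled cell type requires. Fibroblast markers had a median log2 fold change of 0.67 (12 of 14 higher unadjusted, 0 called by edgeR, 9 by DESeq2), and smooth muscle and pericyte markers 0.55 (9 of 15, 0 called, 4 by DESeq2). Squamous epithelium markers had 0.76 (5 of 14, 0 called, 2 by DESeq2) and macrophage markers 0.40 (2 of 8, 0 called, 1 by DESeq2). Of the podocyte and neuron markers only 5 of 10 could be tested, with a median of 0.40 (1 higher unadjusted, 0 called, 1 by DESeq2). Of these 5, 3 had positive folds and 2 negative. Tubb3, the most abundant of them per kilobase, was lower in every inhibition graft. It had 98.9, 110 and 124 CPM under inhibition, against 258, 130.5 and 141 CPM in controls (log2 fold change -0.67, edgeR adjusted p = 0.342). Of the smooth muscle and pericyte markers the 3 most abundant per kilobase were Mcam, Mustn1 and Acta2. Acta2 averaged 46.1 ± 2.66 CPM under inhibition and 31.6 ± 3.55 CPM in controls, and Mustn1 69.6 ± 2.85 and 39.8 ± 15.4 CPM (SD, n = 3 each). Mcam went the other way, at 224.3 ± 44.2 and 281.2 ± 33.3 CPM in the same order, and its groups overlapped. The smooth muscle markers Tagln and Cnn1 and the troponin gene Tnnc2 were near 0 in every library, with at most 13 counts. Of the exon bases, 67.9% in Tagln and 74.0% in Tnnc2 are shared with another annotated gene, so these 2 counts are uncertain. The summed level was 2133 to 2877 CPM under inhibition and 1222 to 1875 CPM in controls for fibroblast markers, and 827 to 904 and 813 to 815 CPM in the same order for smooth muscle and pericyte markers. It was 1739 to 5124 CPM under inhibition and 1406 to 2945 CPM in controls for epithelial markers, and 225 to 265 and 148 to 258 CPM in the same order for macrophage markers. The sum for smooth muscle and pericyte markers includes Mcam, whose mean was lower under inhibition. Of the 15 tested genes of that list 12 had positive folds and 3 negative. The part of the fibroblast, smooth muscle, epithelial and macrophage markers in the result for Synpo2 was not tested.

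**Figure D3:**
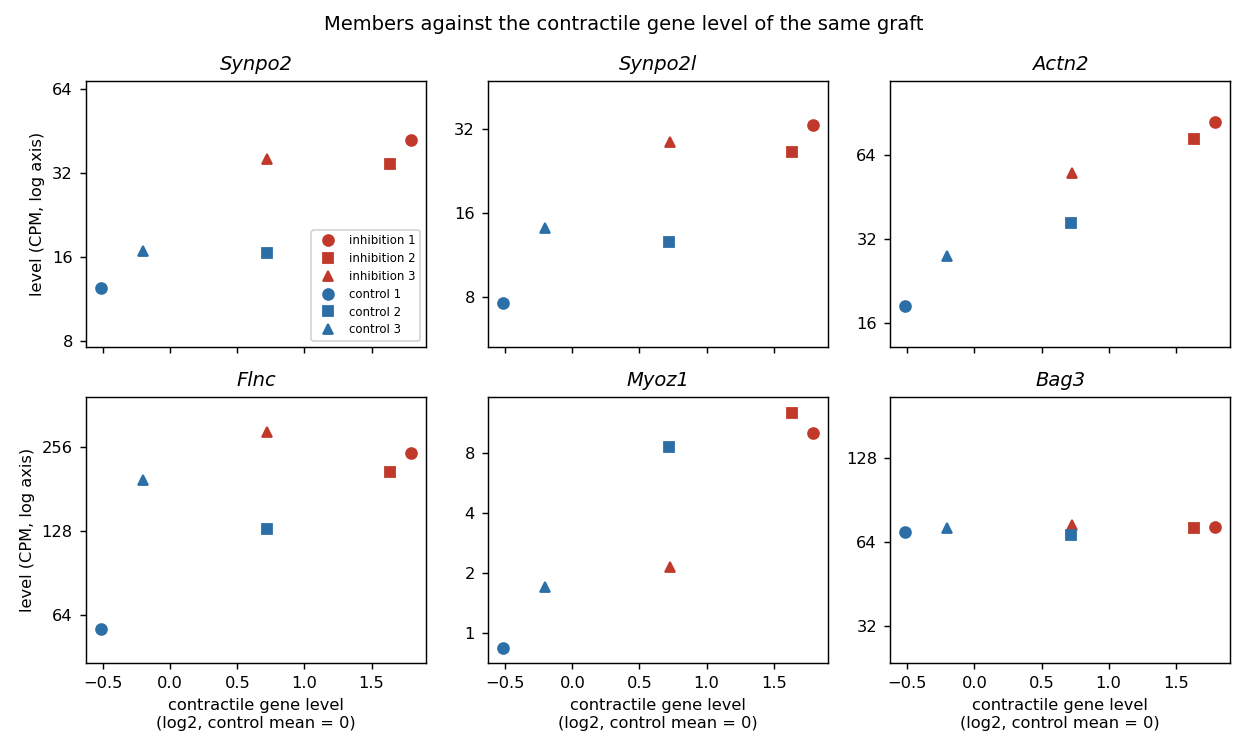
Level of Synpo2, Synpo2l, Actn2, Flnc, Myoz1 and Bag3 (CPM, log axis) against the mean log2 level of the contractile genes in each graft, set to 0 at the control mean, with inhibition in red and control in blue. Control 2 and inhibition 3 had nearly the same contractile level (0.72 each) while Synpo2 was 36.0 CPM in inhibition 3 and 16.5 CPM in control 2.

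The contractile level of each graft, the mean log2 CPM of the 23 tested genes less the control mean, was 1.79, 1.63 and 0.72 under inhibition, against -0.52, 0.72 and -0.20 in controls. Inhibition 3 and control 2 thus met at nearly the same contractile level. In that pair, picked for this level, Synpo2 was 36.0 CPM in inhibition 3 and 16.5 CPM in control 2, Synpo2l 28.7 and 12.6 CPM, Ldb3 30.0 and 17.6 CPM, and Actn2 55.3 and 36.6 CPM in the same order. Myoz1 went the other way, at 2.14 CPM in inhibition 3 and 8.59 CPM in control 2, and Myot was close, at 29.3 and 24.5 CPM. With that level as a covariate over all 6 grafts, the log2 fold changes were 1.05 for Synpo2, 1.07 for Synpo2l, 0.92 for Flnc, 0.74 for Ldb3, 0.53 for Actn2, 0.27 for Myot and -1.98 for Myoz1, and 0 genes of the table were called. In the same fit the median log2 fold change was 0.40 for the members, 0.44 for the other Z-disc genes, 0.08 for the filamin-handling genes, -0.03 for the M-band genes, 0.02 for the nonmuscle cross-linkers, 0.14 for smooth muscle and pericyte markers and 0.09 for fibroblast markers. It was 0.01 for the contractile genes, which make up the covariate.

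The spread inside the groups differed between members. It entered the test by which Synpo2 was selected, so it too is a description. The pooled SD within groups on the log2 CPM scale was 0.20 for Synpo2 and 0.35 for Synpo2l, while it was 0.61 for the mean contractile level. Bag3 at 0.03 and Synpo at 0.08 varied least, and Flnc at 0.66 and Myoz1 at 1.51 most. Among all tested genes, 58.2% had a smaller SD than Synpo2, 0.651% a smaller SD than Bag3 and 99.8% a smaller one than Myoz1. Of 37 genes of the 3 sarcomere lists with a log2 fold change of at least 1, 1 had a smaller SD than Synpo2 (Jph1, a junctional membrane protein, at 0.18, named after its value was seen), and their median SD was 0.56. Control 1 was the lowest control for Synpo2 (-0.28 from the control mean), Synpo2l (-0.53), Flnc (-0.99), Actn2 (-0.53), Ldb3 (-0.36), Actn3 (-0.24) and Myoz1 (-1.37). It was also the lowest control for the mean contractile level (-0.52), but not for Synpo, Myot or Bag3. Without control 1 the SD of Synpo2 was 0.12.

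**Figure D4:**
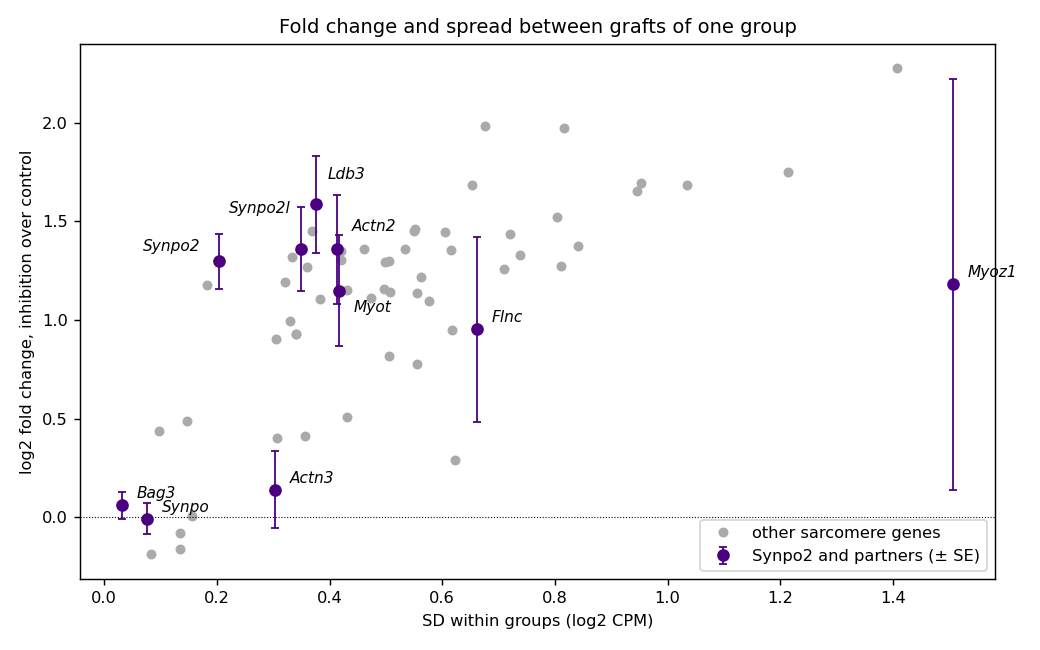
Log2 fold change of inhibition over control (with SE) against the pooled SD within groups (log2 CPM) for the members (purple) and the other tested sarcomere genes (grey). Synpo2 has a fold change of 1.30 at an SD of 0.20, left of most genes of similar fold, and Myoz1 lies at the far right with an SD of 1.51.

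Genes whose 6 values lay nearest to those of Synpo2 were ranked by the root mean square difference of log2 CPM, each gene centred on its own mean, among 12742 genes. The nearest was Mrvi1, a target of cGMP-dependent kinase in smooth muscle, at 0.10. Mrvi1 averaged only 2.27 CPM under inhibition and 0.913 CPM in controls, so its rank rests on low counts. The next was the paralogue Synpo2l at 0.14. Then came Fbxo40, a muscle F-box gene, at 0.16, Meox1, a homeobox gene, at 0.17, Rian, a noncoding RNA, at 0.17, Rbm24, an RNA-binding protein of muscle, at 0.19, Fhl1 at 0.19 and Acta1 at 0.19. Among the partners, Actn2 was 20th in rank, Ldb3 62nd and Myot 97th, while Flnc was 542nd, Actn3 3753rd, Bag3 4233rd, Synpo 6569th and Myoz1 12597th. The 100 nearest of the 12742 genes held 4 of 9 partners, 10 of 23 other Z-disc genes and 5 of 23 contractile genes. They also held 2 of 14 fibroblast markers, 1 of 8 M-band genes, 1 of 16 filamin-handling genes and 0 of 14 smooth muscle and pericyte markers. Beside the share over all ranked genes, 100 of 12742, that of the fibroblast markers was high too. By median rank the order was another, with other Z-disc genes at 174, fibroblast markers at 233 and smooth muscle and pericyte markers at 553. Contractile genes stood at 742, M-band genes at 842 and filamin-handling genes at 3007. This ranking uses the difference between groups as well as the spread, so it repeats in part what chose Synpo2.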

How the data were processed

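RNA of 6 whole grafts was sequenced, 3 per group. The deposited table holds raw read counts per Ensembl gene, whole numbers with no normalization by the authors seen in the values. Per the submitters' processing notes, reads were handled with HISAT2 2.0 and the build mm10. How reads were filtered, assigned to genes and strand and counted is not given in the sources used here. Columns headed nociceptive denevation were assigned to the inhibition samples by name, and 0 columns of per-sample values were left unused. Library totals were 14477277, 19225621 and 20972494 counts under inhibition and 16472276, 15420091 and 20914180 in controls, so 1 count was worth 0.0477 to 0.0691 CPM before TMM scaling. Pairs of libraries differed by a chi-square per degree of freedom of 8.29 to 19.6 within groups and 11.1 to 43.1 across them, so none repeated another; control 2 was nearer to inhibition 3 (11.1) than to control 1 (19.3). Nothing in the labels says that each sample is its own animal; the p-values therefore measure only the spread among these 6 samples, which may be technical.

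Of 55487 IDs 55141 matched a symbol in GENCODE M21 (GRCm38, the assembly mm10 names). The members share 0 exon bases with another annotated gene. Genes were kept by filterByExpr (count minimum 10, total minimum 15), scaled with TMM and compared over all genes in edgeR 4.0.16 (quasi-likelihood test, R 4.3.3), with Benjamini-Hochberg adjustment and no covariate, and called at an adjusted p under 0.05. DESeq2 1.42.0 and limma 3.58.1 (voom) were alternatives. Log2 CPM used a prior count of 2. The members and lists were chosen with earlier results of these data known. Named genes are the 10 members, any called list gene and genes among the 3 most abundant per kilobase of each list. Not all of these 3 are given for every list, and none is for the fibroblast, squamous epithelium and macrophage markers. The 8 genes nearest to Synpo2 with a mean of at least 1 CPM and no predicted name are named too. Hspb8, Stub1, Tnnc2, Actn1, Palld, Tagln, Cnn1 and Jph1 were added after their values were seen. Further alternatives were scaling by RLE or the upper quartile, omitting or tightening the filter, tissue genes left out of scaling, the replicate number as a block, the contractile level as a covariate, another prior count, and each library left out in turn.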

Additional observations from a re-analysis of the deposited data

How the results depend on the processing

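The log2 fold change of Synpo2 stayed positive in all 15 alternatives and past the threshold in 9 of them. It missed the threshold with limma-voom (1.29, adjusted p = 0.164), with the contractile level as a covariate (1.05) and with the replicate number as a block (1.30, edgeR adjusted p = 0.0626), and it ran from 1.16 to 1.37 with each library left out. The numbers gave no ground for pairing: deviations of same-numbered libraries correlated across genes at -0.18, 0.33 and 0.09. Members called were 1 in the fit reported, 4 with no filter, 0 under the block, 0 with the covariate, 0 with limma-voom, 5 with DESeq2 and 0 to 3 with a library left out. Genes called over the table were 6, against 1187 with no filter, 14 under the block, 0 with the covariate (188 higher and 290 lower unadjusted), 0 with limma-voom (1366 and 1064), 541 with DESeq2 and 0 to 217 with a library left out. The SD of Synpo2 within groups ran from 0.12 to 0.23 with a library left out. Synpo ran from -0.0533 to 0.0287 and Actn3 from -0.071 to 0.2871 with a library left out. Synpo turned positive with upper-quartile factors (0.0045), the covariate (0.0287), without inhibition 1 (0.0287) and without control 1 (0.0083), Actn3 turned negative without inhibition 3 (-0.071), and Myoz1 with the covariate (-1.98); the cause was not tested. The covariate is built from muscle genes of the same 6 grafts and differs between the groups, so group and muscle content cannot be fully told apart in it. Myoz1 in control 1 rested on 14 counts, and depth limits it more than the other members, which had at least 126 counts in every library.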
